A study of Mus musculus with 54 samples.

Results

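Open chromatin is DNA that is not wrapped tightly around nucleosomes and can be cut by the Tn5 transposase in ATAC-seq. Microglia, the resident macrophages of the brain, keep their identity through enhancers bound by general macrophage factors such as PU.1 together with factors such as SALL1, MAF and MEF2C, and depend on TGF-beta signals from the brain. Lipopolysaccharide (LPS), a cell wall component of Gram-negative bacteria, activates TLR4 and NF-kB, and homeostatic microglial genes are known to be turned down in that response. H3K27ac marks active enhancers and promoters, H3K4me1 marks enhancers whether active or not, and H3K4me3 marks active promoters.

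The sites described here are the ATAC-seq peaks of microglia from mice given PBS on both occasions (PP) that overlap, by at least 1 bp, a peak of mice given LPS and then PBS (LP), and that overlap no peak of mice given PBS and then LPS (PL) or LPS on both (LL). They were thus called in both groups whose last injection was PBS and in neither group killed after LPS, and 3414 of 69188 PP peaks (4.93%) met that rule. The sites were chosen by peak presence in these 4 lists, so width, score and peak strength in PP and LP are given as descriptions without a test.

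The recurrent model used male wild-type C57BL/6J mice that arrived at 7 to 9 weeks of age and acclimatised for at least 2 weeks. Injections were given intraperitoneally on 2 occasions separated by 4 weeks, with PBS or with 1 mg/kg LPS, and mice were killed 3 h after the last one. The second model used FVB/C57BL/6J mice of 11 to 12 weeks with a whole-body deficiency of the DNA repair endonuclease subunit ERCC1 (Ercc1delta/ko, called KO) and littermates called WT (Ercc1wt/wt, Ercc1wt/ko or Ercc1wt/delta, so some carried 1 mutated allele). Each of these received a single injection of PBS (WT-PBS, KO-PBS) or 1 mg/kg LPS (WT-LPS, KO-LPS) 3 h before death. The sort took DAPI-negative and Ly6c-negative cells with high CD11b and intermediate CD45. RNA-seq had 3 mice per group and 1 mouse per library, whereas each ATAC-seq list came from 1 library of 2 pooled mice and each histone mark list from 1 library of 5 pooled mice. Differences between peak lists therefore had no replicate check, and the 95% Wilson intervals of shares cover counting error only.

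The 8 sites printed below are strong calls near genes of interest, and not the strongest of all the sites. The sites of Gpr34, Sall1, Gpr165, Tgfb2 and Tmem119 are all the sites with the highest possible peak score (1000) whose nearest gene start belongs to the lists of microglial lineage factors, homeostatic genes or the TGF-beta pathway. The P2ry13 site, which had the largest area of all 3414 sites, and the Adamts16 site were chosen after their values were seen. Each run holds 201 bases around the PP summit on the plus strand of GRCm38 (mm10), as read from the RefSeq sequence of that build, and capitals mark matches on either strand to the strings searched for transcription factors. These strings were GAGGAAGT (PU.1), GGAAGT (ETS family, which lies within the PU.1 string), TGCTGAC (MAF), GTCTAGAC (SMAD palindrome), CAGAC (SMAD core string), TTGCNNAA (C/EBP), TGANTCA (AP-1), TGTGGTT (RUNX), GGGTGTGG (KLF) and CACGTG (E-box), with the IRF string of GAAA, 2 bases and GAAA, the NF-kB string of GGG, 2 bases and TTTCC, and the consensus strings of MEF2 and CTCF.
Gpr34, chrX:13618628-13618828: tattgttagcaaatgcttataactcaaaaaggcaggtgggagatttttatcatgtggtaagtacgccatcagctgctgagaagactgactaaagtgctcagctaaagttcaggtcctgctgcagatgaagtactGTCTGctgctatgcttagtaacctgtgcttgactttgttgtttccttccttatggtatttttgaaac
Sall1, chr8:89641438-89641638: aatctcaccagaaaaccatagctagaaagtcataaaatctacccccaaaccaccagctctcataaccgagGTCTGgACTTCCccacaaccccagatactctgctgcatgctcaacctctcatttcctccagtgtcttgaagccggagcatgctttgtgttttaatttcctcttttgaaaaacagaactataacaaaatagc
Gpr165, chrX:96722531-96722731: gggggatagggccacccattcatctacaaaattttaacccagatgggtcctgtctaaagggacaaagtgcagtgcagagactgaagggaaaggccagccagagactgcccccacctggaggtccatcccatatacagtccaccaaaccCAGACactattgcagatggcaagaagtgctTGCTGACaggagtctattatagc
Tgfb2, chr1:186706479-186706679: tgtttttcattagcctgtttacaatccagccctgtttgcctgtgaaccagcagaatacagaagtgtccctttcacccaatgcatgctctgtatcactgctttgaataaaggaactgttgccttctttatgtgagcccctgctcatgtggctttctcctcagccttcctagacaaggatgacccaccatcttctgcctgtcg
Gpr34, chrX:13622218-13622418: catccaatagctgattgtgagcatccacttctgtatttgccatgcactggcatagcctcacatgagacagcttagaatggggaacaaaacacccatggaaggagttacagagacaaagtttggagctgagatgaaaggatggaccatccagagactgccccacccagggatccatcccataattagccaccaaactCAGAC
Tmem119, chr5:113789209-113789409: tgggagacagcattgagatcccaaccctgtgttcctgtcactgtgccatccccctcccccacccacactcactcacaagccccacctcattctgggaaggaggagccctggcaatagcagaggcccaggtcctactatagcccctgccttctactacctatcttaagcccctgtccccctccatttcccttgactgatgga
P2ry13, chr3:59215657-59215857: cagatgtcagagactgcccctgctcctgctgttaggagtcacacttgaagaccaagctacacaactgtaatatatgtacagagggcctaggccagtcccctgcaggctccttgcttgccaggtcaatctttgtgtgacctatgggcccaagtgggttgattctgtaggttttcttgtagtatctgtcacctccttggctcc
Adamts16, chr13:70845189-70845389: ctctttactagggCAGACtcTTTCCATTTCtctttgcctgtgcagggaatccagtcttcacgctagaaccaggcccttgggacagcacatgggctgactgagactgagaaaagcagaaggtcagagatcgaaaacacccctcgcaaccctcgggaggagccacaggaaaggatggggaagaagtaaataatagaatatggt
The 8 windows held 40.8 to 57.2% G and C. The SMAD core string was matched in the windows of Gpr34 (both), Sall1, Gpr165 and Adamts16, an ETS string in that of Sall1, a MAF string in that of Gpr165 and an IRF string in that of Adamts16, while the windows of Tgfb2, Tmem119 and P2ry13 held no match. A run of 13 bases, cagagactgcccc, was noticed after reading the sequences in the windows of Gpr165, the second Gpr34 site and P2ry13. It occurred in 10 of the 3414 sites (0.293%), in 12 of the 48500 PP peaks called in all 4 groups (0.0247%) and in 32 of all 69188 PP peaks (0.0463%). The 3 windows that gave the run are among the 10, so these shares are descriptions only. Of the 10, 9 had their summit in a repeat-masked stretch. All 201 bases of the second Gpr34 window and 154 of the Gpr165 window were repeat-masked. The placing of short reads in repeats was not tested.

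The first Gpr34 site (chrX:13618504-13619009, 506 bp) lay 13361 bp upstream of the start of Gpr34, a receptor for lysophosphatidylserine used as a marker of homeostatic microglia, in an intron of the neighbouring gene Cask. Its peak area, the area under the −log10 p curve that the peak caller Genrich writes for each peak, was 1067 in PP and 806 in LP. A WT-PBS peak covered it and no peak of WT-LPS, KO-PBS or KO-LPS did, while H3K27ac peaks covered it in PP, LP, PL and LL. The second Gpr34 site (chrX:13622147-13622364, 218 bp) lay in the same intron 9771 bp upstream, with areas of 246 and 55.9, and was covered by H3K27ac in PP and LP but not in PL or LL. The Sall1 site (chr8:89641407-89641714, 308 bp) was intergenic and 597376 bp upstream of Sall1, the zinc finger factor that keeps microglia distinct from other macrophages. It had areas of 355 in PP and 378 in LP, and it too was under H3K27ac in PP and LP only. The Ercc1 lists went against a plain loss there, with a peak in WT-PBS and also in KO-LPS.

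The Gpr165 site (chrX:96722439-96722754, 316 bp, areas 348 and 286) was intergenic, 9190 bp downstream of the start of a G protein-coupled receptor gene, and had no H3K27ac in any of the 4 groups. A peak covered it in WT-PBS and in none of the other 3 Ercc1 lists. The Tgfb2 site (chr1:186706445-186706690, 246 bp, areas 258 and 61.6) was 590 bp upstream of the start of Tgfb2, which encodes a TGF-beta ligand, in an intron of Gm29491, also without H3K27ac, and of the Ercc1 lists KO-PBS alone had a peak there. The Tmem119 site (chr5:113789186-113789398, 213 bp, areas 217 and 122) was 11207 bp downstream of the start of Tmem119, a membrane protein used to tell microglia from other macrophages. It was under H3K27ac in all 4 groups and was called in WT-PBS, WT-LPS and KO-LPS, so presence there did not follow the last injection. The P2ry13 site (chr3:59214111-59216051, 1941 bp, areas 1361 and 436) lay in an intron of Med12l, 4875 bp upstream of the purinergic receptor gene P2ry13 and close to P2ry12, a second purinergic receptor of homeostatic microglia. It was called in WT-PBS and KO-PBS, in neither LPS list of the Ercc1 model, and was under H3K27ac in all 4 groups. The Adamts16 site (chr13:70845147-70845449, 303 bp, areas 498 and 363) lay in an exon of Gm36529, 3478 bp upstream of Adamts16, which encodes a secreted metalloprotease, and was under H3K27ac in all 4 groups. Of the Ercc1 lists only WT-LPS had a peak there, against the order by last injection in the recurrent model.

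**Figure D1:**
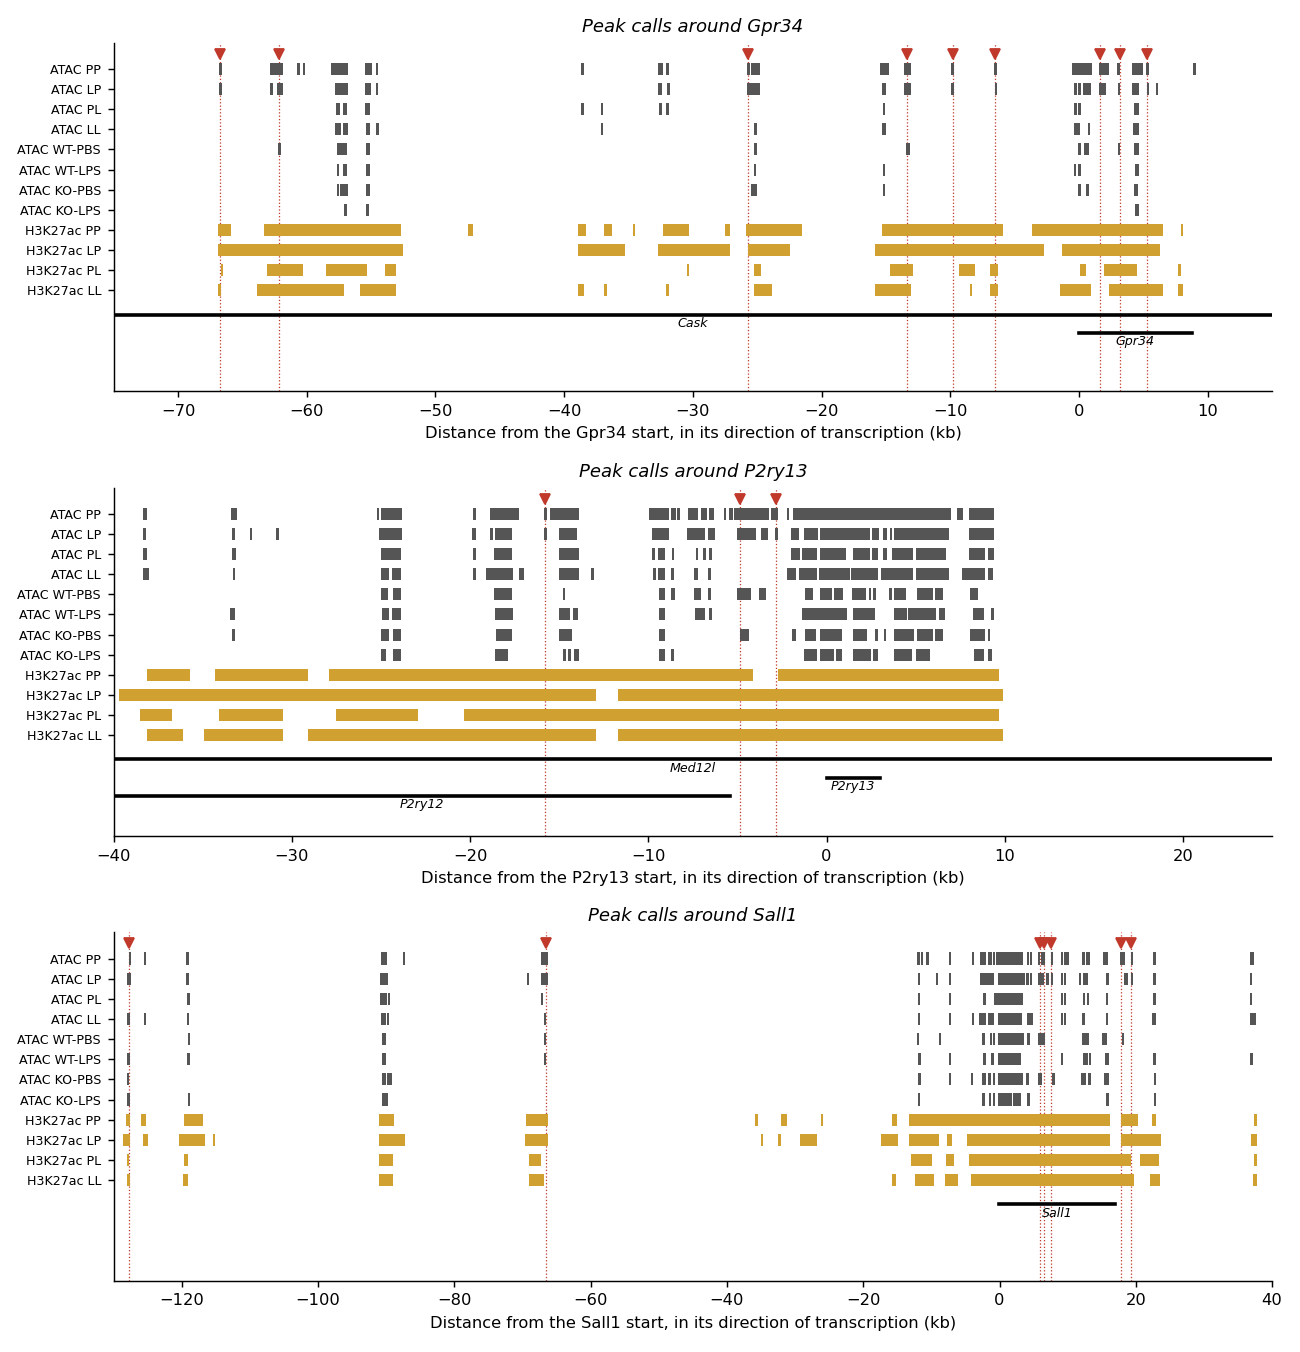
Peak calls around Gpr34, P2ry13 and Sall1, with the distance from each gene's start in kb on the x axis, 1 line per peak list (ATAC dark, H3K27ac gold), gene bodies in black and red triangles on the sites. At the marked sites PP and LP have ATAC peaks and PL and LL have none, while H3K27ac peaks in PL and LL still cover many of them.

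The label of closed sites describes calls rather than measured closure, since most of the sites were weak peaks in PP. Their median width was 183 bp (quartiles 136 and 247, range 63 to 1941) against 492 bp for the 48500 PP peaks that were called in all 4 groups (kept sites). Median Genrich score was 387 (quartiles 266 and 569) against 1000, and median area was 69.6 (quartiles 38.8 and 125, range 20 to 1361) against 513. The median −log10 p at the summit was 2.82 against 4.39. The median area of the strongest overlapping LP peak was 64.1 (range 20.1 to 8072) against 492, so some small PP calls lay under a strong LP peak. The lowest area equals the minimum that Genrich lets through, so many sites sat a short way above the limit of detection of their own list. Over all PP peaks the medians were 327 bp, a score of 793, an area of 253 and a −log10 p of 3.6.

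All PP peaks were split by area into 4 classes of equal size, from class 1 (weakest) to class 4 (strongest). Class 1 held 1835 sites (10.6% of its peaks), class 2 held 1364 (7.89%), class 3 held 213 (1.23%) and class 4 held 2 (0.0116%). The share of kept sites ran the other way, at 22.9, 62.5, 95 and 99.9% of the classes. A score of 1000 was reached by 105 of the 3414 sites (3.08%) and by 56.0% of kept sites. A PL or LL peak lay within 500 bp of 944 sites (27.7%) without touching them and within 1000 bp of 1306 (38.3%), and the median distance to the nearest one was 2225 bp. Just outside the rule were 9 peaks of PP and LP that touched a PL or LL peak by less than 10 bp (median area 35.9), and just inside it were 10 sites with such a peak less than 10 bp away (median area 52.7). A further 4813 of the 56727 PP peaks shared with LP (8.48%) were not counted because 1 of PL and LL had a peak. PP peaks missing from LP alone numbered 3064 (4.43%, median area 55.8), from PL alone 2975 (4.30%, 105), from LL alone 1838 (2.66%, 89.2), from LP and PL 1746 (2.52%, 46.9), from LP and LL 1322 (1.91%, 46.2) and from all other groups 6329 (9.15%, 36.3). The share missing from PL and LL, at 4.93%, was thus the largest of the 3 patterns with 2 groups missing. The opposite pattern, a PL peak shared with LL and absent from PP and LP, was found for 5048 of 70446 PL peaks (7.17%).

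**Figure D2:**
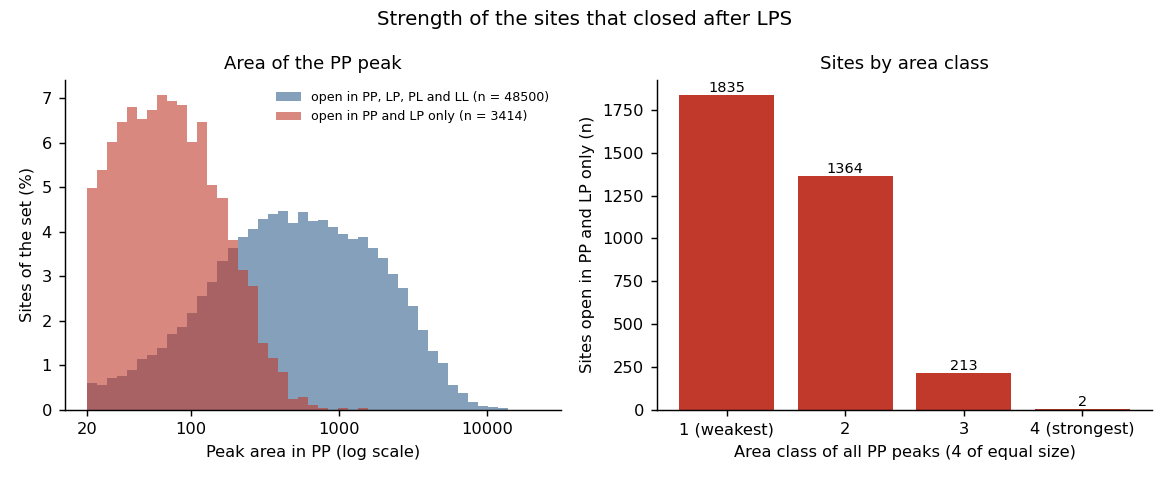
Strength of the sites in PP: distributions of peak area (log axis) for the sites and for kept sites, and the number of sites in each of the 4 area classes of PP peaks. Of the 3414 sites, 1835 lie in the weakest class and 2 in the strongest.

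The sites were mostly distal. Only 139 (4.07%, 95% interval 3.46 to 4.79%) lay within 1 kb of a gene start, against 24.6% of kept sites and 19.6% of all PP peaks, and the median distance to the nearest start was 24952 bp against 9884 bp. Introns held 55.7% of the sites (kept sites 43.0%), exons 6.30% (6.48%) and intergenic stretches 34% (25.9%), and 29.8% of sites were more than 50 kb from any start (15.1%). On the X chromosome the sites were 122 of 1672 PP peaks (7.30%), with autosomes between 3.63% on chromosome 19 and 5.62% on chromosome 14. Summits lay in repeat-masked sequence at 14.9% of sites (13.7 to 16.1%) and at 9.12% of kept sites, and this excess was present in area classes 1 to 3 (15 against 11.3%, 13.9 against 10.3% and 19.7 against 10.1%).

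Over all positions, the strings of microglial factors were about as frequent at the sites as elsewhere. The PU.1 string was found within 201 bp of 9.78% of sites, 9.87% of kept sites and 9.29% of all PP peaks, and the ETS string of 35.0, 37.2 and 35.4%. The MAF string was found at 6.18, 5.52 and 5.37%, MEF2 at 2.52, 1.94 and 2.11%, the SMAD core string at 44.8, 42.4 and 42.5%, C/EBP at 9.49, 9.18 and 9.21%, RUNX at 6.09, 5.49 and 5.61%, IRF at 3.25, 3.58 and 3.45%, and KLF at 1.82, 1.91 and 1.85%. Among distal peaks of any strength, PU.1 stood at 10.1% of sites (9.09 to 11.2) against 11.8% of kept sites (11.5 to 12.2). ETS stood there at 35.4% (33.7 to 37.0) against 41.0% (40.5 to 41.5), so both were rarer at distal sites with strength left unmatched. The intervals overlapped for IRF (3.27 against 4.10%) and C/EBP (9.56 against 10.5%), and MAF was close (6.26 against 6.40%). Strings of some other factors were rarer at the sites over all positions. AP-1, the string of FOS and JUN dimers, was found at 4.57% of sites against 7.20% of kept sites and 6.85% of all PP peaks, NF-kB at 0.469% against 1.15 and 1.07%, CTCF, the factor of chromatin loop anchors, at 4.25% against 7.63 and 7.53%, the E-box at 3.51% against 5.34 and 4.84%, and the SMAD palindrome at 0.117% against 0.318 and 0.299%. Among distal peaks of area classes 1 and 2, which brings sites and kept sites nearer in strength and place, AP-1 stood at 4.76 against 8.70%, NF-kB at 0.424 against 1.16% and CTCF at 4.60 against 13.7%. Strength was not fully matched there. Over all positions, classes 1 and 2 held 1835 and 1364 sites but 3969 and 10810 kept sites. In the same comparison the E-box stood at 3.62% (3.01 to 4.34) against 4.00% (3.68 to 4.35) and the SMAD palindrome at 0.0978% (0.0333 to 0.287) against 0.270% (0.194 to 0.375), so neither gap was beyond counting error there. PU.1 stood there at 10.1% (9.06 to 11.2) against 9.07% (8.58 to 9.57) and ETS at 35.3% (33.7 to 37.1) against 35.0% (34.2 to 35.8). Neither PU.1 nor ETS was thus rarer at the sites in that comparison. A match is a run of letters and says nothing of binding.

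At most sites under H3K27ac in PP, the mark was also called in PL. H3K27ac peaks covered 46.1% of the sites in PP, 50.7% in LP, 33.9% in PL and 38.1% in LL, against 64.9, 67.7, 61.7 and 64.6% of all PP peaks and 75.1, 77.3, 73.0 and 75.6% of kept sites. Within an area class the share in PP was closer to that of all PP peaks, at 48.8 against 44.6% in class 1 and 42.3 against 47.6% in class 2, whereas in PL it was 38.4 against 41.4% and 29.5 against 44.0%. Of the sites, 989 (29.0%) were under H3K27ac in all 4 groups, 1524 (44.6%) in none, 228 (6.68%) in PP and LP only and 7 (0.205%) in PL and LL only. At kept sites the last 2 patterns were less far apart, 782 (1.61%) against 402 (0.829%).

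Where H3K27ac was present in PP, it was absent from PL at 492 of 1575 sites (31.2%, 29.0 to 33.6%) and at 2453 of 36444 kept sites (6.73%). From LP to LL it was lost at 499 of 1732 sites (28.8%, 26.7 to 31.0%) against 5.69% of kept sites. In the other direction, 75 of 1158 sites marked in PL (6.48%) had no peak in PP, against 3.97% of kept sites, and between both PBS-ending groups 105 of 1575 sites (6.67%) marked in PP were unmarked in LP, against 2.31%. The gap to kept sites was also present within ATAC area classes, with losses from PP to PL of 26.3 against 8.92% in area class 1, 35.2 against 12.2% in class 2 and 53.5% (43.8 to 62.9%) against 9.99% in class 3. These classes do not match the strength of the mark. In PP the H3K27ac peaks over the sites had a median score of 83 (quartiles 63 and 108), against 98 (74 and 126) at kept sites. The part of this difference in the losses was not tested. H3K27ac was measured in other libraries than ATAC and was not used by the rule, but each group had 1 library.

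The promoter mark did not follow the last injection. H3K4me3 covered 26.6% in PP, 33.4% in LP, 27.3% in PL and 34.8% in LL (kept sites 68.6, 73.0, 68.6 and 74.4%), so its share was higher in LP and LL at both kinds of site, and it was in PP and LP only at 26 sites and in PL and LL only at 32. H3K4me1, mapped in the Ercc1 model, covered 82.2% of sites in WT-PBS and 87.0% in KO-PBS, close to the 87.1 and 91.1% of kept sites. The deposited H3K4me1 lists of these groups carry each other's genotype in their names, so which of the values belongs to WT cannot be settled here. The Polycomb mark H3K27me3 covered 18.5% in WT-PBS (kept sites 19.1%), and H3K27ac in the same model covered 38.7% in WT-PBS and 32.7% in KO-PBS.

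Presence in the Ercc1 model was not used by the rule. WT-PBS had a peak at 215 sites (6.30%, 5.53 to 7.16%), WT-LPS at 622 (18.2%, 17 to 19.5%), KO-PBS at 410 (12.0%, 11 to 13.1%) and KO-LPS at 291 (8.52%, 7.63 to 9.51%), beside 42.1, 73.1, 60.9 and 64.0% of all PP peaks and 57.8, 92.1, 80.3 and 83.7% of kept sites. In area class 1, which holds most of the sites, the shares were 4.96, 17.2, 10.8 and 8.88% against 6.13, 36.4, 20.3 and 26.5% of all PP peaks of that class, so in WT-PBS the sites were near other weak peaks. In WT the share was thus higher after LPS, and in KO lower. The lists were of unequal length, with 36412 peaks in WT-PBS, 65323 in WT-LPS, 52325 in KO-PBS and 59019 in KO-LPS. When each was cut to its 36412 strongest peaks, a comparison added after seeing the data, the shares were 6.30, 2.37, 4.16 and 1.29%, so the direction in WT turned with list length, and kept sites stood at 57.8, 71.0, 66.1 and 65.0%. No ATAC peak was called in either WT list at 2673 sites (78.3%) or in either KO list at 2830 (82.9%).

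Where a site was called in WT-PBS it was often not called in WT-LPS. This held for 119 of 215 sites (55.3%, 48.7 to 61.8%) against 263 of 28056 kept sites (0.937%), and in area classes 1 to 3 for 59.3 against 6.80%, 55.1 against 4.38% and 37.5 against 1.26%. The reverse was also frequent, since 526 of the 622 sites called in WT-LPS (84.6%) were absent from the shorter WT-PBS list, against 37.8% of kept sites. In KO, 293 of 410 sites called after PBS (71.5%, 66.9 to 75.6%) had no call after LPS, against 7.02% of kept sites. In area classes 1 to 3 these shares were 69.2 against 20.5%, 74.7 against 17% and 68.3 against 8.24%. In the other direction, 174 of 291 sites called after LPS (59.8%) had none after PBS, against 10.8%. Of the 215 sites in classes 3 and 4, 29 were called in KO-PBS and not in KO-LPS and 7 in KO-LPS and not in KO-PBS, while in WT these numbers were 11 and 37. Calls at the sites were thus unshared in both directions, and the part of peak strength beyond these classes was not tested.

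**Figure D3:**
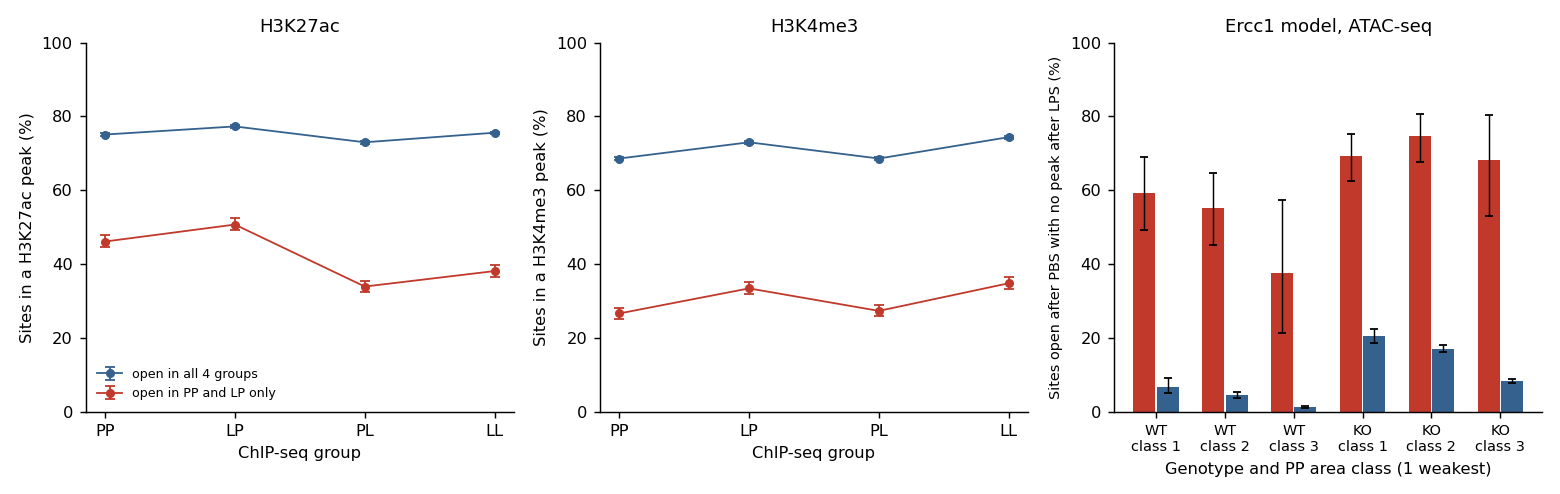
Percent of the 3414 sites (red) and the 48500 kept sites (blue) under H3K27ac and H3K4me3 peaks in PP, LP, PL and LL, and, of those with an Ercc1-model ATAC peak after PBS, the percent with none after LPS by genotype and area class, with 95% Wilson intervals. H3K27ac covers fewer sites in PL (33.9%) and LL (38.1%) than in PP (46.1%) and LP (50.7%), and loss of ATAC calls is above that of kept sites in each class shown.

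Each site was assigned to the nearest start of an annotated gene, by distance alone. The 3414 sites fell to 2489 of 19018 genes that were nearest to any PP peak (13.1%), 1891 of them with 1 site, 417 with 2 and 181 with 3 or more. Sall1 had the most, 14 of its 71 PP peaks, followed by Hpgd, which encodes the enzyme that inactivates prostaglandins (10 of 35), Gpr34 (9 of 22), the unnamed gene Gm49422 (9 of 31), and, tied at 8 sites, Abca13 (of 21 peaks), Csmd3 (of 45) and the vomeronasal receptor gene Vmn1r2. For Hpgd, 6 of the 35 peaks were called in all 4 groups, and for Gpr34 5 of the 22.

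Sites were nearest to 12 of 31 lineage factor genes (38.7%), 18 of 54 homeostatic genes (33.3%), 6 of 31 TGF-beta pathway genes (19.4%) and 3 of 28 LPS-induced genes (10.7%), beside 13.1% over all genes with a PP peak. These shares of genes take no account of how many PP peaks each gene has. As a share of the PP peaks of those genes, the sites made up 27 of 402 (6.72%), 43 of 569 (7.56%), 9 of 248 (3.63%) and 3 of 187 (1.60%), beside 4.93% over all. Sall1 alone gave 14 of the 27 lineage factor sites. Some marker lists of other cell types, with fewer peaks, had shares as high, with neuron markers at 2 of 4 genes and 3 of 25 peaks (12.0%), border-associated macrophage markers at 2 of 4 and 3 of 17 (17.6%), oligodendrocyte markers at 2 of 5 and 3 of 36 (8.33%) and astrocyte markers at 2 of 6 and 4 of 50 (8%). Endothelial markers stood at 0 of 6 genes and 0 of 32 peaks and neutrophil markers at 0 of 2 and 0 of 2. Monocyte markers stood at 1 of 3 and 1 of 21 (4.76%) and lymphocyte markers at 1 of 2 and 1 of 2. The 10 microglia markers stood at 6 of 10 genes and 34 of 214 peaks (15.9%), with 14 of the 34 sites at Sall1 and 9 at Gpr34. The first 3 lists took 79 sites, 43 in introns, 2 in exons and 34 intergenic, and 2 of the 79 were within 1 kb of a start. H3K27ac covered 63 of them in PP, 65 in LP, 51 in PL and 55 in LL, and H3K4me1 covered 75. In WT-PBS 19 of the 79 had an ATAC peak, 15 of which were not called in WT-LPS, and in KO-PBS 8 did, none of which was called in KO-LPS. In the other direction 11 were called in WT-LPS, 4 of them also in WT-PBS, and 2 in KO-LPS, neither of them in KO-PBS.

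Gene by gene, the 14 Sall1 sites were covered by H3K27ac at 13 in PP, 13 in LP, 7 in PL and 11 in LL, and were called at 4 in WT-PBS, 1 in WT-LPS, 2 in KO-PBS and 1 in KO-LPS. The 9 Gpr34 sites were covered at 9, 9, 6 and 7, and 3 were called in WT-PBS and none in the other Ercc1 lists. All 5 Tmem119 sites kept H3K27ac in each of the 4 groups, with ATAC calls at 3 in WT-PBS, 3 in WT-LPS, 1 in KO-PBS and 1 in KO-LPS. Of the 10 Hpgd sites, 2 were covered in PP, 3 in LP, none in PL and 2 in LL, and no Ercc1 list called any. Both sites of Cx3cr1, the fractalkine receptor, kept H3K27ac in all 4 groups. One of the pair was called in WT-PBS only and the other in KO-PBS only. A further 3 sites lay within Cx3cr1 but were nearest to the start of Gm33858, and these too were under H3K27ac in all 4 groups. The single site of Maf, a large MAF family factor, lay 70835 bp upstream without H3K27ac.

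RNA-seq of the same groups, which the rule did not use, showed lower RNA after LPS for many of the nearest genes. Levels are counts scaled by TMM to a common library total (CPM) and are not divided by gene length, so they compare groups and not genes, and tests are edgeR's quasi-likelihood test with Benjamini-Hochberg adjustment over all genes tested and a call at an adjusted p under 0.05. In bulk RNA, fewer cells of a type and less RNA per cell cannot be told apart. Of the 2489 nearest genes 1340 passed the filter on low counts in the recurrent model, and 1519 of the 3414 sites had a nearest gene that was not tested.

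In PL versus PP, 624 of the 1340 nearest genes were lower (46.6%) and 191 higher (14.3%), beside 26.6% lower and 26.0% higher over all 16096 genes tested. Median log2 fold change was −0.37 against −0.04. Genes with 3 or more sites stood further out, with 75 of 110 lower (68.2%), 4 higher (3.64%) and a median of −0.73, while genes with 2 sites were lower in 47.7% and genes with 1 site in 43.9%. Of 9826 genes that had kept sites nearest to them and none of the sites, 29.4% were lower and 27.6% higher. Genes near sites with H3K27ac in all 4 groups were lower in 57.3% (of 536) and genes near sites with the mark in PP and LP only in 47.3% (of 110), so loss of the mark did not go with a larger share of lower genes.

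In LL versus LP, 412 nearest genes were lower (30.7%) and 130 higher (9.70%), beside 15.9% and 15.4% over all genes, and of the 110 genes with 3 or more sites 50 were lower (45.5%) and 7 higher (6.36%). Without LL replicate 1 the count of lower nearest genes dropped from 412 to 268. LP versus PP gave 0 lower and 0 higher calls in edgeR, over nearest and over all genes (0 and 0% called), with a smallest adjusted p of 0.3999. At an unadjusted p under 0.05 it had 69 of the 1340 nearest and 817 of all 16096 genes, and DESeq2 and limma also called 0. In WT-LPS versus WT-PBS, 216 of 1411 nearest genes were lower (15.3%) and 117 higher (8.29%), beside 9.15% and 10.7% over all genes. In KO-LPS versus KO-PBS, 464 were lower (32.9%) and 187 higher (13.3%), beside 19.3% and 17.7%. One WT-PBS library stood apart, with 1810 CPM of P2ry12 against 6930 and 7720 in the other WT-PBS mice, and without it 282 nearest genes were lower and 152 higher in WT. Without the library Control_LPS_185 the lower genes numbered 137, and without Control_LPS_149 they numbered 139.

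**Figure D4:**
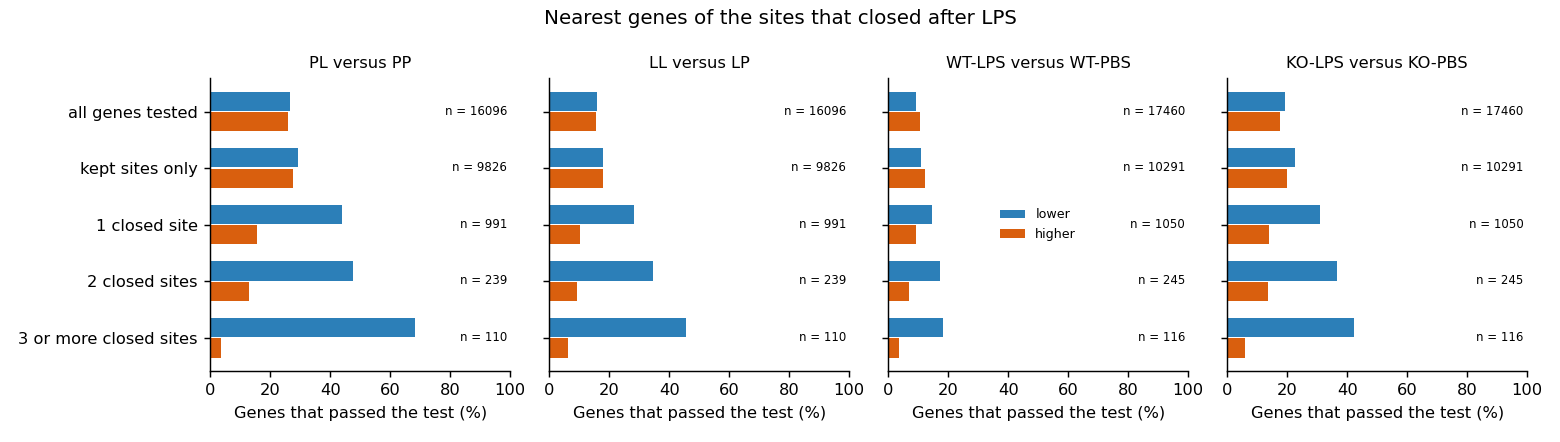
Percent of tested genes called lower (blue) or higher (orange) after LPS in the 4 comparisons, for all genes and for genes nearest to the sites by number of sites, with n beside each bar. In PL versus PP 68.2% of genes with 3 or more sites are lower and 3.64% higher, against 26.6% and 26.0% of all genes.

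Among lineage factors nearest to a site, 9 of 12 were lower and 1 higher in PL versus PP (median −0.70), and of 20 without a site 9 were lower and 6 higher (−0.19). Sall1 (ENSMUSG00000031665) had 1529, 1423 and 1706 CPM in PP and 1422, 1340 and 1402 in LP, but 143, 159.7 and 236 in PL and 301.4, 424 and 281 in LL. All LPS-ending libraries were below all PBS-ending ones, and those of LL were above those of PL. The log2 fold change was −3.11 (SE 0.195, adjusted p 1.876e-08) in PL versus PP and −2.05 (SE 0.187, adjusted p 1.748e-06) in LL versus LP. In the Ercc1 model Sall1 stood at 1731, 1752 and 576 CPM in WT-PBS, the last in the library that stands apart, 354, 501 and 488 in WT-LPS, 1326, 1384 and 1169 in KO-PBS and 176, 189.7 and 158 in KO-LPS.

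Maf showed the same order of groups. Its libraries had 637.7, 568 and 613 CPM in PP, 602, 547 and 576 in LP, 72.9, 72.2 and 103 in PL and 145, 219.4 and 150.4 in LL, again without overlap between LPS-ending and PBS-ending groups. The change was −2.88 (SE 0.173, adjusted p 1.292e-08) in PL versus PP and −1.74 in LL versus LP. In WT-PBS Maf had 635.5, 631 and 1127 CPM, so the library that stands apart was high for Maf and low for Sall1. Mef2c, a MADS box factor of microglia, went from 454, 434 and 425 CPM in PP to 183.8, 144 and 204 in PL (−1.30, adjusted p 1.021e-06). Fli1, an ETS factor, fell by 1.31 on the log2 scale in PL versus PP, Etv5, another ETS factor, by 1.42, Mitf, a basic helix-loop-helix factor, by 0.71 and the nuclear receptor gene Rxra by 0.69, whereas Irf8, an interferon regulatory factor required for microglia, fell by 0.44. Klf4, a Krüppel-like factor, was the lineage factor that rose, from 1.73, 1.09 and 2.29 CPM in PP to 32.8, 49.9 and 66.1 in PL and from 1.44, 3.89 and 1.40 in LP to 72.3, 84.6 and 61.2 in LL. Bhlhe41 and Cebpa, also nearest to a site, did not pass the test in PL versus PP.

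**Figure D5:**
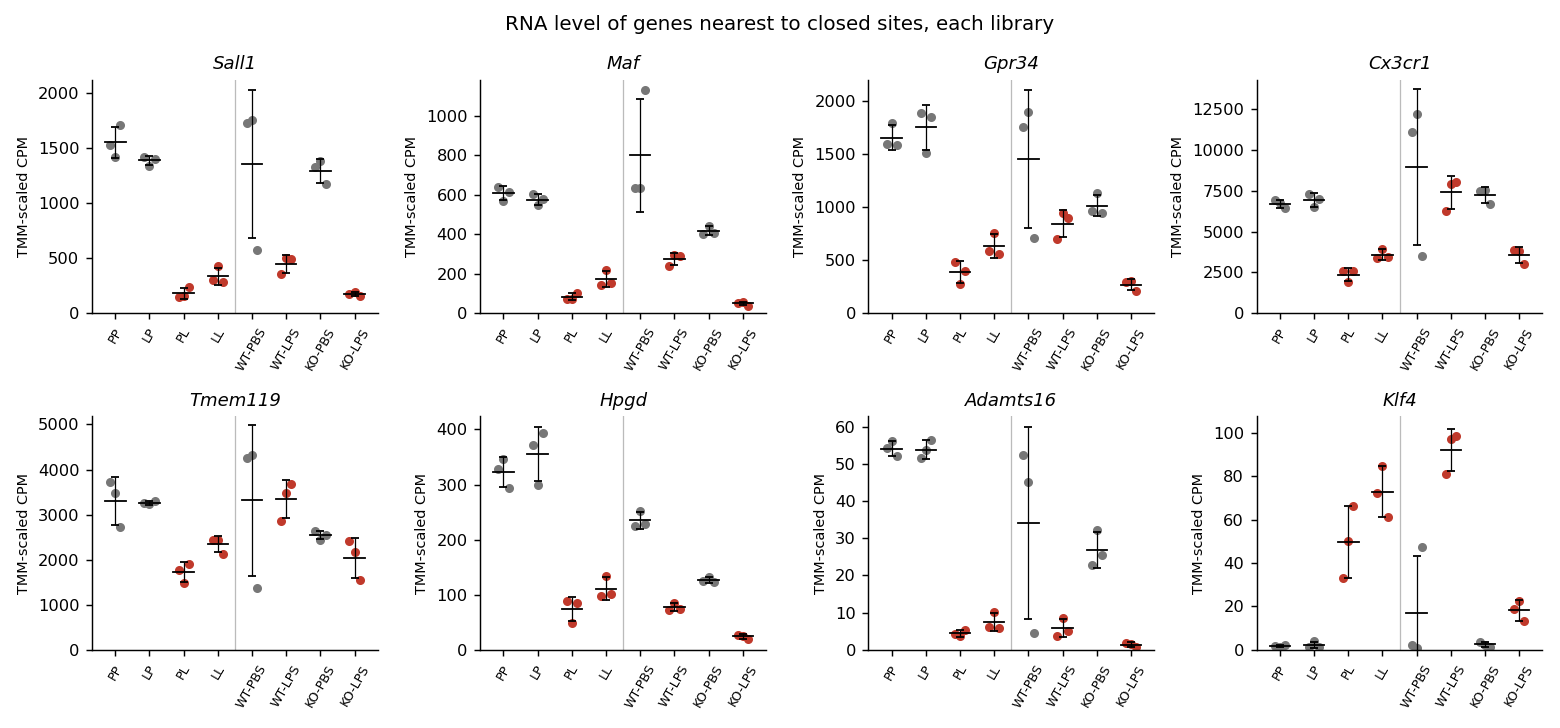
RNA level (CPM, linear axis) of 8 genes nearest to the sites in each of the 24 libraries by group, 1 point per mouse (red after LPS), with lines at the group mean and whiskers of 1 SD over 3 mice. Sall1, Maf, Gpr34 and Hpgd are lower in each PL and LL library than in each PP and LP library, and Klf4 is higher.

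Of the homeostatic genes nearest to a site, 15 of 18 were lower and 0 higher in PL versus PP (median −0.96), and of 36 without a site 16 were lower and 5 higher (−0.26). Gpr34 (ENSMUSG00000040229) had 1593, 1789 and 1584 CPM in PP, 1891, 1507 and 1854 in LP, 481, 278 and 400.4 in PL and 582, 758 and 555 in LL. Its change was −2.10 (SE 0.183, adjusted p 4.95e-07) in PL versus PP and −1.47 (adjusted p 2.846e-05) in LL versus LP. Cx3cr1 had 6902, 6723 and 6443 CPM in PP and 2582, 1901 and 2583 in PL (−1.51, SE 0.126, adjusted p 3.19e-07), and 3360, 3953 and 3413 in LL. P2ry13, nearest to the site with the largest area, had 1889, 1955 and 1696 CPM in PP and 1043, 695 and 889 in PL (−1.08, SE 0.136, adjusted p 1.608e-05). Tmem119, whose 5 sites kept H3K27ac, had 3726, 3473 and 2716 CPM in PP and 1761, 1483 and 1915 in PL (−0.94, SE 0.129, adjusted p 3.367e-05). In these 4 genes no PL library reached the lowest PP library.

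The other homeostatic genes called lower were the receptor gene Gpr165 (−2.52), the potassium channel gene Kcnk13 (−1.44), Scoc (−1.32), the sialic acid receptor genes Cd33 (−1.06) and Siglech (−0.68), the phagocytic receptor gene Mertk (−1.03), the hexose transporter gene Slc2a5 (−0.97), Vsir (−0.73), Rhob (−0.46), Nav3 (−0.37) and Nav2 (−0.34). Cst3 (0.00), Fcrls (0.26) and Sparc (−0.26) did not pass the test in PL versus PP. In LL versus LP 10 of the 18 were lower and 0 higher, in WT-LPS versus WT-PBS 3 and 0, and in KO-LPS versus KO-PBS 10 and 0. Tmem119 was not called in WT (0.01, adjusted p 0.9872) or in KO (−0.32, adjusted p 0.4854), with 2868, 3480 and 3685 CPM in WT-LPS and 4262, 4313 and 1378 in WT-PBS. Cx3cr1 was called in KO (−1.02, adjusted p 0.03362) and not in WT (−0.28, adjusted p 0.6272).

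TGF-beta pathway genes nearest to a site moved in both directions, with 1 of 5 tested lower and 2 higher in PL versus PP. Skil, an inhibitor of SMAD factors, had 349, 359 and 412 CPM in PP and 1145, 876 and 1019 in PL (1.44, adjusted p 2.216e-07), and Smad1, a SMAD factor of the BMP branch, had 57.9, 61.6 and 58.7 in PP and 149.4, 143 and 143 in PL (1.29, adjusted p 4.593e-07). Itgav, an integrin subunit that takes part in TGF-beta activation, fell by 0.42 on the log2 scale (adjusted p 0.01623), and the receptor genes Tgfbr2 and Bmpr2 did not pass the test. Tgfb2 did not pass the filter on low counts in the recurrent model. The 3 LPS-induced genes nearest to a site all rose, as did 26 of 26 without one. Il12b, a subunit of interleukin 12, had 0.115, 0 and 0.191 CPM in PP and 22.2, 10.7 and 7.44 in PL, and no fold change is given because PP held a single count in each of 2 libraries and 0 in the third.

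Outside the lists, Hpgd (ENSMUSG00000031613), with 10 sites, had 328, 347 and 294 CPM in PP, 372, 299.7 and 394 in LP, 87.8, 49.1 and 84.3 in PL and 97.1, 135 and 100.7 in LL. It was lower in PL versus PP (−2.13, SE 0.199, adjusted p 9.494e-07), and in each LPS library of the Ercc1 model (71.7, 85.3 and 74.7 CPM in WT-LPS, 27.5, 25.1 and 20 in KO-LPS) than in each PBS library there (225, 252 and 228 in WT-PBS, 124, 133 and 123 in KO-PBS). Adamts16 had 54.2, 56.1 and 52.0 CPM in PP, 51.5, 53.7 and 56.4 in LP, 4.24, 3.64 and 5.30 in PL and 6.21, 10.3 and 5.87 in LL (PL versus PP −3.63, SE 0.175, adjusted p 1.624e-09). Sox4, a SOX family factor, had 81.7, 75.0 and 89.2 CPM in PP and 6.36, 6.20 and 8.02 in PL. Among the largest falls in PL versus PP were also the unnamed genes Gm33858 (−3.88) and A930024E05Rik (−3.50), Ypel2 (−3.55) and the olfactory receptor gene Olfr111 (−3.54). The sites of Gm33858 lay within Cx3cr1.

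Some nearest genes went up or did not change. Gem, a small GTPase of the RGK family, rose from 1.5, 1.86 and 1.52 CPM in PP to 29.2, 17.1 and 19.3 in PL, and Gadd45g, a stress-response gene, from 20.4, 18.1 and 13.5 to 170.2, 181 and 261. Csmd3 and Abca13, with 8 sites each, did not pass the test in PL versus PP, and Gm49422, with 9, was not tested.

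RNA of markers of other cell types differed between some groups. The summed CPM of the neutrophil markers was 0.971, 165 and 255 in PL, 0 to 44.8 in PP, 4.81 to 16.3 in LP and 0.487 to 4.97 in LL, and 4 of the 4 tested of 6 markers were higher in PL versus PP. The monocyte markers summed to 22.1 to 29 CPM in PP, 54.5 to 92.9 in PL and 41.9 to 44.9 in LL, with 4 of 4 higher, although the gate took Ly6c-negative cells of intermediate CD45. The 10 microglia markers summed to 41300 to 46600 CPM in PP, 23300 to 32000 in PL and 34100 to 37000 in LL. The other marker sums in PP and PL were 11.9 to 37.7 and 5.30 to 18.1 CPM for neurons, 231 to 320 and 151 to 211 for oligodendrocytes, 207 to 253 and 266 to 289 for astrocytes, 46.7 to 56.9 and 62 to 109 for endothelial cells, 22.3 to 23.7 and 14.4 to 28.9 for border-associated macrophages, and 0 to 0.381 and 0.177 to 0.944 for lymphocytes, without overlap for oligodendrocytes, astrocytes and endothelial cells. In the Ercc1 model the astrocyte markers summed to 208 to 246 CPM in WT-PBS, 429 to 542 in WT-LPS, 177 to 189 in KO-PBS and 419 to 501 in KO-LPS. Neuron markers summed to 8.8 to 15.2 CPM in WT-PBS, 28.4 to 30.7 in WT-LPS, 4.18 to 5.13 in KO-PBS and 13.2 to 20.5 in KO-LPS, so the PBS and LPS ranges did not overlap in either genotype. Border-associated macrophage markers summed to 7.29 to 15.5 CPM in WT-PBS, 19.8 to 24.3 in WT-LPS, 18.9 to 34.1 in KO-PBS and 50.8 to 64 in KO-LPS. Endothelial markers summed to 51.2 to 63 CPM in WT-PBS and 102 to 107 in WT-LPS, and neutrophil markers to 24.2 in KO_LPS_600 and under 1 in every other Ercc1-model library. Without the 2 PL libraries high in neutrophil markers, which leaves PL with 1 library whose spread is assumed to be that of the other groups, 511 nearest genes were lower and 179 higher in PL versus PP, and Irf8, Nav2, Nav3 and Itgav were no longer called. Whether those calls were lost with the neutrophil markers or with the number of libraries cannot be told apart. The source of the marker RNA and its part in the other values were not tested. The deficiency itself was weakly visible in RNA, with Ercc1 at 8.79 to 11 CPM in WT-PBS and 5.14 to 8.18 in KO-PBS (−0.57, SE 0.204, adjusted p 0.09737), not called.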

How the data were processed

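RNA-seq tables, ATAC-seq peaks and histone mark peaks were taken as deposited, on GRCm38 (mm10). Per gene, the deposited RNA tables give expected counts, unscaled and with fractions, that the authors made with bbduk, STAR 2.7.3a and featureCounts 2.0.0. For ATAC-seq the authors aligned with Bowtie2 2.3.5.1, removed duplicates, blacklisted and low-quality alignments, and called peaks per library with Genrich 0.5 at a p of 0.01. The deposited lists give its score (mean area per base, capped at 1000), its signal (the area under the −log10 p curve) and the −log10 p at the summit, none of them scaled between libraries. Peaks of the histone marks were called by the authors with SPAN against input, with thresholds set per sample, and the deposited score of these lists was used only for medians. Gene lengths in the tables were not used.

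Peaks were shared at an overlap of 1 bp. Summits were assigned to the nearest start of a protein-coding or long non-coding gene of the annotation, and motif strings were searched 100 bases to each side. Counts were rounded, filtered with filterByExpr, scaled by TMM and tested with edgeR 4.0.16 in R 4.3.3, 1 fit for each model with 12 libraries and 3 mice per group. Standard errors were taken from each log2 fold change and its F statistic. On simulated counts with 200 changed genes the procedure was tested before use. Total counts were 4529972 to 34659134 per library, and 83.58% of values were whole.

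Genes named are those of the lineage factor, homeostatic and TGF-beta lists nearest to a site, those nearest to the 10 sites with the highest PP score, the 6 nearest to the most sites (of 3 tied at 8 sites, the first 2 by gene ID), and the 6 largest falls and 4 largest rises in PL versus PP among called nearest genes whose libraries did not overlap and averaged 5 CPM or more. Of the genes this rule takes, 1 is not reported here. Names outside this rule were chosen after their values were seen. The sites, the 13 gene lists and the tests were chosen with earlier results of these data known. Alternatives were DESeq2 1.42.0, limma 3.58.1 with and without sva 3.50.0 (2 and 3 surrogate variables), RLE scaling, no count filter, fits of the compared groups alone, a stricter cut-off, a 50 kb limit, a replicate block, leaving out libraries, and other peak overlaps, strengths and list lengths. Coverage tracks were not used here.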

Additional observations from a re-analysis of the deposited data

Results flagged for a closer look

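The LPS response of 11 named nearest genes differed between KO and WT in edgeR's interaction test, with adjusted p over all 17460 genes, where 808 genes and 115 nearest genes passed at 0.05. All were more negative, or less positive, in KO. The difference in log2 fold change (KO minus WT) was −2.73 for Sox4 (adjusted p 0.002221), −2.64 for Ypel2 (0.003935), −2.81 for A930024E05Rik (0.007272), −1.05 for Fli1 (0.009225), −1.56 for Maf (0.0168), −1.01 for Mef2c (0.02021), −1.54 for Etv5 (0.02267), −0.78 for Hpgd (0.02728), −1.33 for Scoc (0.03273), −2.16 for Gadd45g (0.03488) and −1.16 for Stard8 (0.04818). The WT-PBS library that stands apart enters each of these values, and its part in them was not tested.

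In the recurrent model the second LPS injection changed 4 named nearest genes differently from the first, among 34 nearest genes and 289 of 16096 genes that passed at 0.05. The LL versus LP change minus the PL versus PP change was −2.08 for Gem (adjusted p 0.01822), a smaller rise, and 1.13 for Maf (0.02168), 1.32 for Sox4 (0.03256) and 1.58 for Ypel2 (0.04968), which are smaller falls. Gem, Sox4 and Ypel2 were named for the size of their PL versus PP change, which enters this difference. That choice by itself favours a smaller second response in these genes.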

How the results depend on the processing

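The number of sites stayed between 2403 and 3866 under the 4 other rules. The shares in WT-PBS, WT-LPS, KO-PBS and KO-LPS moved to 2.25, 10.2, 7.07 and 4.87% with a −log10 p of at least 3 in every ATAC list, to 7.40, 22.0, 13.7 and 10.5% with equal numbers of peaks in PP, LP, PL and LL, and the last 3 to 2.37, 4.16 and 1.29% with equal Ercc1 lists. H3K27ac shares in PP, LP, PL and LL became 43.1, 47.3, 31.2 and 35.2% with an overlap of 50% of the shorter peak, 56.7, 61.3, 41.8 and 47.2% with the stricter −log10 p, and 35.4, 40.4, 23.0 and 26.9% with no PL or LL peak within 500 bp, so PL and LL stayed below PP and LP under these settings. Within 2 kb of a start lay 7.59% of sites. At the stricter cut-off (0.01 for the adjusted p, log2 changes beyond 1), nearest genes lower and higher were 18.7 and 5.30% in PL versus PP, 7.24 and 3.13% in LL versus LP, 3.19 and 3.05% in WT and 14.4 and 6.02% in KO. Without a count filter 2 of 2040 (0.0980%) were higher in LP versus PP, and limma with sva gave 13% higher in WT. Leaving out 1 library gave 39.9 to 45.1% lower and 12.5 to 14.8% higher in PL versus PP, 19.5 to 27.1% and 7.33 to 8.24% in LL versus LP, 0 and 0% in LP versus PP, 9.47 to 19.5% and 5.42 to 10.5% in WT, and 26.3 to 27.8% and 10.8 to 12% in KO. The cause of these shifts was not tested. Of 2341 alternative values of named genes 2207 kept direction and call, 65 gained the call, 68 lost it and 1 reversed, Cst3 in PL versus PP, at −0.25 in limma with sva (adjusted p 0.04863). Without PL replicates 2 and 3, an alternative added after seeing the data that leaves PL with 1 library whose spread is assumed to be that of the other groups, Irf8 (−0.22), Nav2 (−0.29), Nav3 (−0.19) and Itgav (−0.14) were no longer called.

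The replicate numbers of the recurrent model did not pair the libraries, since same-numbered deviations correlated at −0.409 to 0.414, so samples shared only a number. With the number as a replicate block, 629 nearest genes were lower and 192 higher in PL versus PP, 405 and 131 in LL versus LP, and 0 and 0 in LP versus PP.

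Each ATAC and mark list was 1 library of pooled mice, so no difference between lists has a replicate error. A site counted as closed only lacks a call, its read coverage was not used, and most sites were close to the limit of their own list.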
